A study of Bos taurus with 16 samples.

Results

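The Hippo pathway genes described here were 10 genes: the kinases STK3, STK4, LATS1 and LATS2, the scaffold proteins AMOT, AMOTL2 and NF2, and the effectors YAP1, WWTR1 and TEAD1. They were chosen by gene symbol among the 22358 loci counted in every blastocyst pool, and 9 of the 10 symbols were listed. YAP1 was listed under its locus name LOC100336629, which RefSeq pairs with YAP1 by gene ID, and it was read from that locus. Of the 10 genes, 9 had enough reads to be tested between treatments, and AMOT did not.

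The Hippo pathway is a kinase cascade that controls organ size and cell fate. STK3 and STK4 (MST2 and MST1) phosphorylate LATS1 and LATS2, which in turn phosphorylate YAP1 and WWTR1 (also called TAZ) and keep them out of the nucleus; when the kinases are inactive, YAP1 and WWTR1 enter the nucleus and activate transcription with TEAD proteins. In the mouse blastocyst, nuclear YAP1 in the outer, polarized cells turns on trophectoderm genes, whereas angiomotins and NF2 promote LATS activity in the inner cells. The pathway works largely through phosphorylation and location of proteins, which read counts do not measure.

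Expanded blastocysts of Holstein cows were collected in pools, 2 pools from each of 8 cows, and the RNA of each pool was amplified and sequenced. Cows 1 to 4 received the Control diet, and cows 5 to 8 received the Methionine diet, the same basal ration with rumen-protected methionine added, from calving until the embryos were collected. Pools held unequal numbers of blastocysts, mostly more in Methionine than in Control, and some pools held a single blastocyst. RNA quality was lower in several Methionine pools than in any Control pool with a measured value. The part of these differences in the levels, the spread between pools and the treatment comparisons below was not tested. All cows were superovulated and artificially inseminated and the blastocysts were flushed from the uterus according to the study's methods, although the sample labels call the tissue IVF embryos. Genotypes beyond the breed and the ages of the cows are not given in the sources used here, and pools are named below by cow and pool number, so that pool 4.2 is the second pool of cow 4.

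Pool 3.2 (Control), which the study set aside for its low share of exonic reads, held 1745048 counts and was left out of the comparisons, so that 7 Control and 8 Methionine pools remained. Their totals ranged from 5624126 to 7826542 counts with a median of 7257007, and 3 counts, taken as the limit of detection that a count of 0 allows, corresponded to between 0.383 and 0.533 CPM (counts per 1000000 counts of the pool), a limit that covers counting error only. Pool 2.1 (Control) also stood apart: the summed level of 12 leukocyte markers was 2484 CPM there and at most 31.6 CPM in each of the other 14 pools. Most of the sum was LAPTM5 (1239 CPM), NKG7 (480 CPM), TYROBP (377 CPM) and LCP1 (183 CPM). PTPRC was highest in pool 8.1 (6.68 CPM, against 3.20 CPM in pool 2.1), FCER1G was highest in pool 8.2, and CD3E was at 0. The other markers were highest in pool 2.1, though CD74 and CORO1A reached only 2.49 CPM there. Among the 9 genes tested, pool 2.1 held an extreme value of its group for WWTR1, the lowest of the Control pools, and for no other gene, and none of the 9 was called without that pool. The trophectoderm markers summed to between 3727 and 9621 CPM in the Control pools and between 2848 and 6868 CPM in the Methionine pools, mostly from KRT18. None of the 10 tested was called, against 1.05% of all loci. A negative log2 fold change was found for 9 of the 10, and for 5631 of all 10519 loci tested. CDX2, a defining transcription factor of the trophectoderm, reached 3 counts in 11 of the 15 pools. Inner cell mass markers summed to between 209 and 1818 CPM in the Control pools and between 212 and 596 CPM in the Methionine pools, with most reads from KLF4, and hypoblast markers to between 1082 and 3929 CPM and between 1070 and 3449 CPM, with most reads from FN1, while SOX17 was at 0 in all 15 pools. The part of these markers in the results below was not tested. A pool mixes these cell types, so that fewer cells of a type and less RNA per cell cannot be told apart.

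The first question was whether the maternal diet changed the transcript levels of the pathway's core genes. None of the 9 genes tested differed between treatments by edgeR's exact test at a false discovery rate (FDR) under 0.1 and a fold change of at least 2, and none had an unadjusted p under 0.05. Over all 10519 loci tested, 110 passed the same test, or 1.05% (29 higher in Methionine, 0.276%, and 81 higher in Control, 0.77%), and 898, or 8.54%, had an unadjusted p under 0.05. With edgeR's quasi-likelihood test, which allows for uncertainty of the dispersion, 0 of the 9 genes passed and 0 had an unadjusted p under 0.05, against 0 called and 909 (8.64%) of all loci. The smallest FDR among the 9 genes was 0.845 in the exact test and 0.799 in the quasi-likelihood test. Their median log2 fold change of Methionine over Control was -0.14, with 4 positive and 5 negative, whereas the median of all loci tested was -0.05. Nor were the cow means of any of the 9 genes separated by treatment, while 232 of all loci (2.21%) had cow means that did not overlap.

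**Figure D1:**
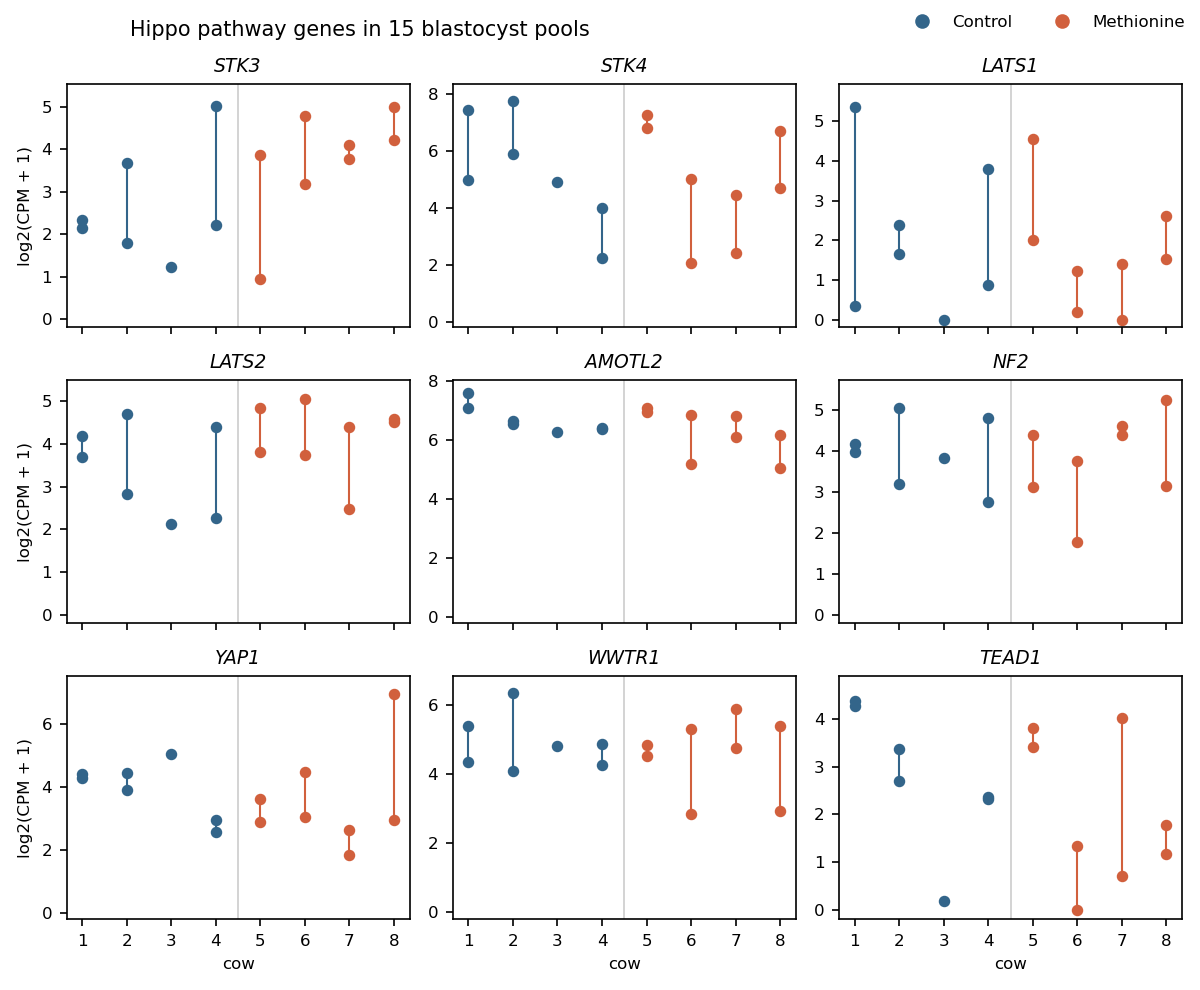
Level of each tested Hippo pathway gene in the 15 pools, as log2(CPM + 1) on the y axis, by cow on the x axis; each point is a pool, lines join the 2 pools of a cow, and the vertical line separates Control (cows 1 to 4, blue) from Methionine (cows 5 to 8, orange). The groups overlapped for all 9 genes, and the pools of a cow often lay far apart, as for YAP1 in cow 8 (6.75 and 125 CPM).

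The upstream kinases STK3 and STK4 had different patterns. STK3 (locus XLOC_004159) ranged from 1.35 to 31.6 CPM in Control, where its median was 3.63 CPM. In Methionine it ranged from 0.924 to 31.2 CPM around a median of 14.9 CPM. The higher Control values came from pool 4.2 (31.6 CPM) and pool 2.2 (11.9 CPM), and the lower Methionine values from pool 5.2 (0.924 CPM) and pool 6.2 (8.08 CPM), so that the groups overlapped across their ranges. The log2 fold change was 1.03, the largest positive value among the 9 genes, with p = 0.158 and FDR = 0.845 in edgeR's exact test. The cow means were 3.74, 7.20, 1.35 and 17.6 CPM in Control and 7.28, 17.3, 14.5 and 24.4 CPM in Methionine, a difference of 8.41 CPM which an exact permutation test (70 ways to divide the cows by 4 and 4) did not separate from their spread (two-sided p = 0.171).

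STK4, the paralog of STK3, spanned a wider range. Its level was between 3.73 and 212 CPM in Control, the median being 30.2 CPM, and between 3.13 and 151 CPM in Methionine, the median being 28.1 CPM. Values above 100 CPM were found in both groups, in pools 1.2 and 2.2 of Control and in both pools of cow 5 and pool 8.1 of Methionine. The lowest values, also in both groups, were those of pools 4.2, 6.1 and 7.1, where STK3 was at 31.6, 26.6 and 16.2 CPM. Its log2 fold change was -0.45 (edgeR's exact test, p = 0.516, FDR = 1), and leaving out cow 2 moved it to 0.01.

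LATS1 and LATS2 are the kinases that act directly on YAP1 and WWTR1. LATS1 was near the limit of detection in part of the pools: it was at 0 in pools 3.1 and 7.2 and reached 3 counts in 11 of the 15 pools. Its level ranged from 0 to 40.0 CPM in the Control pools (median 2.13 CPM) and from 0 to 22.5 CPM in the Methionine pools (median 1.78 CPM). Pool 1.2 alone held 267 of its 673 counts (39.7%), and the other pool of the same cow held 2 counts. A log2 fold change of -1.19 was fitted (edgeR's exact test, p = 0.289, FDR = 0.958), and it was 0.06 without cow 1.

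LATS2 was detected in every pool, with at least 23 counts. It ranged from 3.37 to 25.1 CPM in Control (median 12.0 CPM) and from 4.60 to 32.0 CPM in Methionine (median 20.9 CPM). Control pool 2.2 (25.1 CPM) lay above 6 of the 8 Methionine pools, and Methionine pool 7.1 (4.60 CPM) was among the lowest, so that the groups overlapped. The log2 fold change was 0.65 (edgeR's exact test, p = 0.259, FDR = 0.938). Of the 9 genes it had the smallest p in the exact permutation test on cow means, 0.0857 two-sided before correction and 1 after adjustment over all loci, from 11.4 ± 5.54 CPM in Control and 19.3 ± 4.79 CPM in Methionine (SD, n = 4 cows each). Cow 7 (12.3 CPM) lay below Control cows 1 and 2 (14.6 and 15.6 CPM). With each cow left out in turn, the difference ranged from 5.28 CPM without cow 3 (exact permutation p = 0.143) to 10.3 CPM without cow 7. The unadjusted exact permutation p reached 0.2 without cow 6 or cow 8, and it was 0.0286 without cow 7, the smallest that 7 cows allow and set by leaving out the cow that overlapped.

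The scaffold proteins link the kinases to membrane and junctions. AMOTL2 (angiomotin like 2), which binds YAP1 and promotes LATS activity and is also a reported target of YAP1, was the steadiest of the 9 genes. It had between 210 and 1465 counts in every pool. Its level was between 77.5 and 193 CPM in the Control pools (median 92.1 CPM) and between 32.3 and 135 CPM in the Methionine pools (median 90.8 CPM). The highest values were those of cow 1 (193 and 134 CPM), and the pools below 40 CPM were both from Methionine cows, pool 6.2 at 35.3 CPM and pool 8.1 at 32.3 CPM, while the other 6 Methionine pools lay between 68.7 and 135 CPM. The log2 fold change was -0.39 (edgeR's exact test, p = 0.287, FDR = 0.956), it ranged from -0.57 to -0.02 when each cow was left out in turn, and the value nearest to 0 was the one without cow 1.

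AMOT, the founding angiomotin, was all but absent from these libraries. It had 14 counts over the 15 pools, with 9 counts in pool 5.1, 4 counts in pool 6.2, 1 count in pool 2.2 and 0 in the other 12 pools, so that 2 pools, both Methionine, were above the limit of detection. With 0 counts, a level of up to 0.383 to 0.533 CPM cannot be told from absence. Since it failed the filter on low counts, no fold change was drawn for it.

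NF2 (merlin), which recruits LATS kinases to the membrane, had close medians in the treatments. It ranged from 5.77 to 32.2 CPM in Control (median 14.8 CPM) and from 2.45 to 37.1 CPM in Methionine (median 16.2 CPM). Both the lowest value, in pool 6.1, and the highest, in pool 8.2, were from Methionine cows, and the Control pools lay between them. Between treatments the log2 fold change was 0.02 (edgeR's exact test, p = 0.982, FDR = 1), and the 95% interval from limma voom, fitted with cows as random effects, was -1.43 to 0.85, which leaves room for changes of over 2-fold in the negative direction.

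Of the transcriptional coactivators, YAP1 showed an estimate that rested on a lone pool. It ranged from 4.95 to 32.5 CPM in Control, where the median was 18.7 CPM. In Methionine it ranged from 2.56 to 125 CPM and the median was 6.99 CPM. Pool 8.1 held 896 of the 2122 counts of YAP1 (42.2%) and the next Methionine pool, 6.2, was at 21.4 CPM, so that the mean was higher in Methionine (23.2 ± 41.4 CPM, SD, n = 8) than in Control (16.9 ± 9.36 CPM, SD, n = 7) although the median was lower. As fitted to 15 pools, the log2 fold change was 0.50 (edgeR's exact test, p = 0.503, FDR = 1), and it was -0.99 without cow 8 and -0.52 with limma voom. Neither direction can therefore be given for YAP1.

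WWTR1, the paralog of YAP1, was detected in every pool with at least 45 counts. Its level was between 16.2 and 81.7 CPM in the Control pools (median 27.1 CPM) and between 6.13 and 58.8 CPM in the Methionine pools (median 26.9 CPM). The highest Control pool, 2.2, was followed by pool 1.2 (41.1 CPM), and the pools below 10 CPM, 6.1 and 8.2, were both from Methionine cows. Methionine over Control, WWTR1 had a log2 fold change of -0.14 (edgeR's exact test, p = 0.793, FDR = 1), and it was 0.09 without cow 2 and 0.03 with all 16 pools.

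TEAD1, a DNA-binding partner of YAP1 and WWTR1, had pools within 2-fold of each other in 5 of the 7 cows with 2 pools, as did AMOTL2 and YAP1. It ranged from 0.135 to 19.8 CPM in the Control pools (median 5.51 CPM) and from 0 to 15.2 CPM in the Methionine pools (median 1.97 CPM), and it reached 3 counts in 13 of the 15 pools. The pools of cow 1 were both high (18.2 and 19.8 CPM), those of cow 4 were alike (3.96 and 4.11 CPM), and those of cow 5 were 9.65 and 12.9 CPM. Cow 7, in contrast, had 0.639 and 15.2 CPM, and cow 6 had 0 and 1.51 CPM. For TEAD1 the log2 fold change was -0.78 (edgeR's exact test, p = 0.399, FDR = 0.995), and it was 0.24 without cow 1.

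The 95% intervals from limma voom included 0 for all 9 genes. The narrowest was that of AMOTL2, from -1.15 to 0.29 on the log2 scale. It left out a rise of 2-fold in Methionine, as did those of NF2 (upper limit 0.85), YAP1 and WWTR1. For YAP1 the edgeR estimate was 0.50, against -0.52 with limma voom, so that its limit depends on the fit. LATS2 had an interval from -0.35 to 1.83 and STK3 from -0.56 to 2.81, both extending further above 0 than below. For YAP1 (-1.91 to 0.87) and WWTR1 (-1.47 to 0.68) the intervals extended further below 0, and those of LATS1 (-3.07 to 2.54), TEAD1 (-3.45 to 1.26) and STK4 (-2.19 to 1.50) were the widest. Changes of 2-fold in one direction at least were thus within the interval of each gene, and a p above the threshold does not show that the levels were alike. The fit shared a within-cow correlation of 0.035 among all loci. For TEAD1 and STK4 the SD of log2 CPM between cow means was larger than that between pools of a cow, so their intervals may be too narrow. The same may hold for other genes. In AMOTL2 the SD was 0.55 between cow means and 0.59 within cows, and in YAP1 it was 1.12 and 1.24, although cow means average over pools.

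**Figure D2:**
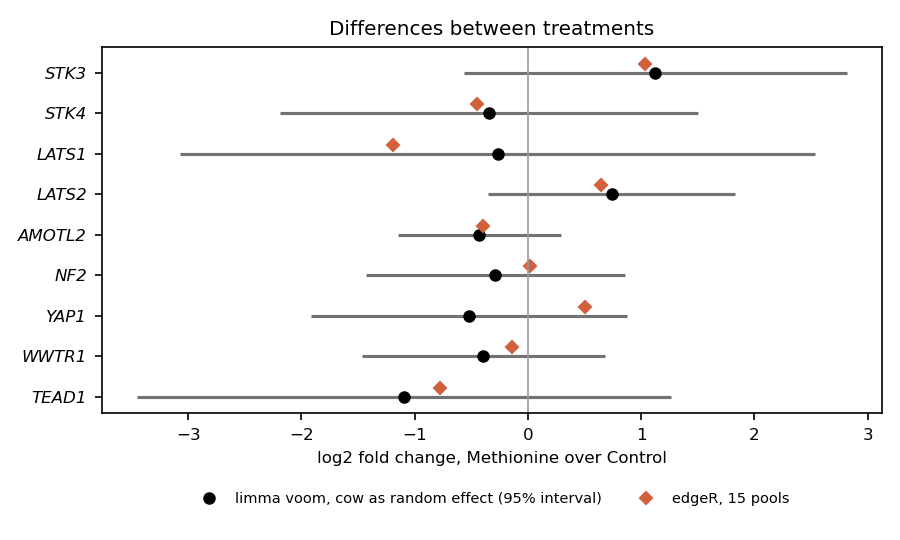
Log2 fold change of Methionine over Control on the x axis for each tested Hippo pathway gene, from limma voom with random cow effects (black points, bars are 95% intervals) and from the edgeR fit to 15 pools (orange diamonds). All 9 intervals include 0, and for NF2 and YAP1 the 2 fits lie on opposite sides of 0.

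Within a pool, the balance of paralogs does not depend on the total count, so the log2 ratio of the counts of each pair of paralogs was compared between treatments over cows. A ratio of counts also depends on transcript lengths, and its 0 does not mark equal numbers of molecules. STK3 to STK4 varied from -6.80 in pool 5.2 to 3.06 in pool 4.2, and STK3 had more reads than STK4 in 4 of the 15 pools, 4.2, 6.1, 7.1 and 8.2. The mean over cows was -3.10 ± 2.41 in Control and -1.27 ± 2.69 in Methionine (SD, n = 4 cows each), a difference of 1.82 with an exact permutation p of 0.429 (two-sided). That difference was between 1.20 (without cow 7) and 3.11 (without cow 5, exact permutation p = 0.0857) when each cow was left out, and 3.03 without cow 4. Control cow 4 and Methionine cows 6 and 7 had cow means above 0 (0.52, 0.56 and 0.59), and cow 5 of Methionine had the lowest (-5.13).

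For LATS1 to LATS2, pool 1.2 was the only pool with more LATS1 reads (ratio 1.73), and the lowest ratio was -8.04 in pool 7.2. LATS1 had 0 counts in pools 3.1 and 7.2, so the ratios there depend on the 0.5 added to each count. The mean of cow 3 (-5.67) came from pool 3.1 alone and has the same limit. The mean over cows was -2.76 ± 1.97 in Control and -3.49 ± 1.85 in Methionine (SD, n = 4 cows each; exact permutation test, two-sided p = 0.657). Their difference of -0.73 was -1.70 without cow 3 and -0.15 without cow 6. With 2 added to each count in place of 0.5, the difference was -0.90 (exact permutation test, two-sided p = 0.371). YAP1 had more reads than WWTR1 in 6 pools, 3 of each treatment, with ratios from -4.49 in pool 7.1 to 1.61 in pool 8.1. Its mean over cows was -0.83 ± 0.94 in Control and -1.11 ± 1.81 in Methionine (SD, n = 4 cows each; exact permutation test, two-sided p = 0.8). None of the 3 ratios differed by more than the spread between cows, and the ratio of AMOT to AMOTL2 was not compared, since AMOT was at 0 in 12 pools.

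**Figure D3:**
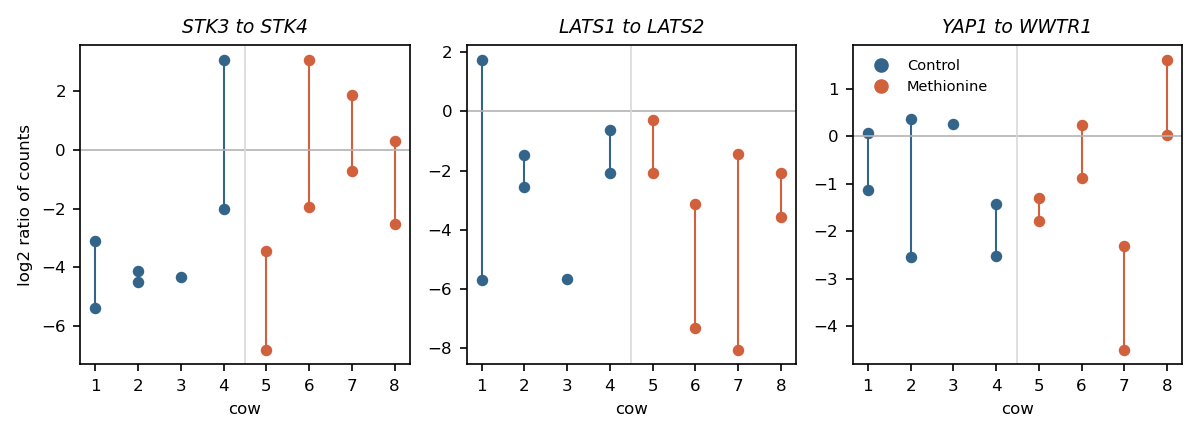
Log2 ratio of read counts (0.5 added to each count) on the y axis for 3 pairs of paralogs, by cow on the x axis; each point is a pool, lines join the 2 pools of a cow, and cows 1 to 4 are Control (blue) and 5 to 8 Methionine (orange). STK3 to STK4 spans from -6.80 to 3.06 and the treatments overlap in each panel.

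How much the genes varied was examined as the SD of log2 CPM. Within cows, from pool to pool, the SD was 2.28 for LATS1, 1.53 for STK4 and 1.46 for STK3, against 0.59 for AMOTL2 and a median of 1.15 over all loci tested. It was larger than the SD between cow means of a treatment for 7 of the 9 genes, as it was for 74.7% of all loci. A cow mean averages 2 pools, except for cow 3, which by itself makes the SD between cow means smaller than that of single pools. A larger SD within cows therefore does not show that cows differed less than pools. The exceptions were TEAD1, with 1.33 within and 2.04 between cows, and STK4, with 1.53 and 1.76. Over the 15 pools the SD of 5 of the 9 genes, namely LATS1, STK4, TEAD1, STK3 and YAP1, was above the median of all loci (1.24). None of the 9 genes was within 2-fold in all 7 cows with 2 pools: AMOTL2, YAP1 and TEAD1 were in 5 of the 7, STK3 in 3, LATS2, NF2 and WWTR1 in 2, and STK4 and LATS1 in 1. The highest pool was 67.6 times the lowest for STK4, 48.8 times for YAP1, 34.2 times for STK3, 15.1 times for NF2, 13.3 times for WWTR1, 9.51 times for LATS2 and 5.99 times for AMOTL2.

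**Figure D4:**
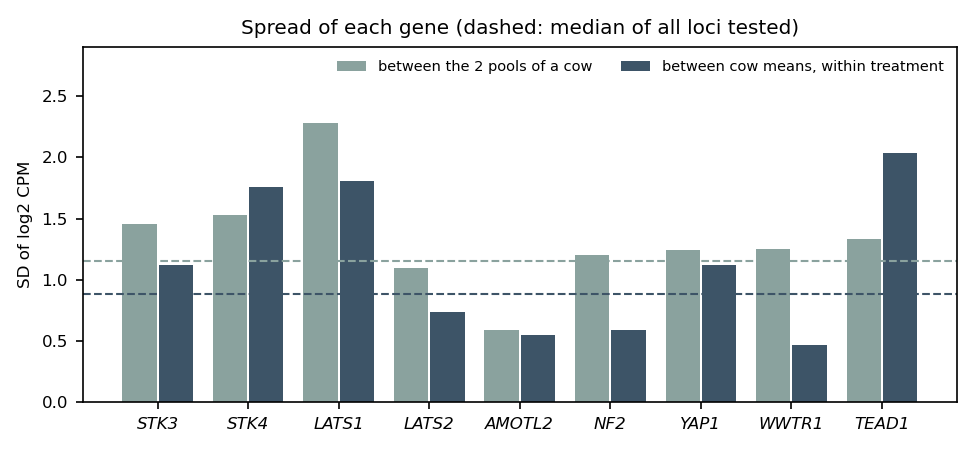
SD of log2 CPM on the y axis for each tested Hippo pathway gene, between pools within cows (light bars) and between cow means of a treatment (dark bars); dashed lines are the medians of all loci tested, 1.15 and 0.88. AMOTL2 lies below both medians, and STK4 and TEAD1 have the larger SD between cows.

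No pool was high or low for all the genes. Pool 6.1 had the lowest value of the 15 pools for STK4 (3.13 CPM), NF2 (2.45 CPM), WWTR1 (6.13 CPM) and TEAD1 (0 CPM), but the highest for LATS2 (32.0 CPM) and 26.6 CPM of STK3. In pool 2.2, STK4 (212 CPM) and WWTR1 (81.7 CPM) were at their highest. Pool 8.1 had the highest YAP1 and the lowest AMOTL2. Pool 6.1 also held 183 counts of PGR, a progesterone receptor gene listed as a marker of the reproductive tract and at 0 or 1 count elsewhere, and the part of that in the values of this pool was not tested.

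Summed by role, the 4 kinases reached between 23.2 and 253 CPM in the Control pools (median 68.4 CPM) and between 26.8 and 215 CPM in the Methionine pools (median 71.4 CPM). The scaffolds, mostly AMOTL2, had the same median of 112 CPM in both groups, with ranges of 88.5 to 210 CPM and 40.2 to 145 CPM. The effectors ranged from 29.2 to 105 CPM in Control (median 57.9 CPM) and from 13.4 to 167 CPM in Methionine (median 49.2 CPM). All of these ranges overlapped.

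Among the 36 pairs of the 9 genes, Pearson's r of log2 CPM over the 15 pools had a median of 0.17 and was above 0 in 25 pairs. It was highest for STK3 with LATS2 (0.60) and lowest for STK3 with STK4 (-0.40). These values are descriptions over pools that share cows and were each scaled by the pool's total. The loci whose log2 CPM was most like that of the effectors, out of 4970 loci that had 10 counts or more in each pool, were CYB5R1, TMBIM6 and CD2BP2 for WWTR1 (r = 0.82, 0.81 and 0.81, n = 15 pools). For TEAD1 they were SYS1, C29H11orf48 and MARCH3 (r = 0.84, 0.81 and 0.80, n = 15 pools). For YAP1 they were NSUN2, PRMT7 and C22H3orf19 (r = 0.75, 0.74 and 0.70, n = 15 pools), and these fell to 0.56, 0.60 and 0.60 without pool 8.1, while those of WWTR1 and TEAD1 without their highest pool were between 0.76 and 0.82.

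The rest of the pathway was examined in 6 lists of 97 further genes, of which 92 were found and 78 had enough reads to be tested. None was called by the exact or the quasi-likelihood test of edgeR, against 1.05% and 0% of all loci, and 8 of the 78 had an unadjusted p under 0.05 in the exact test, against 8.54% of all loci, and both counts were near the background. Their median log2 fold change was -0.04, with 38 positive and 40 negative. Reads were at 3 counts or more in every pool for 50 of the 92 genes, and DCHS1, an atypical cadherin, and RASSF6 were at 0 in all 15 pools. The smallest FDR among them, 0.174 in the exact test, was that of SIK2, a salt-inducible kinase that inhibits the pathway, with a log2 fold change of 3.10, but pool 6.1 held 80.0% of its counts. FBXW11, a subunit of the ubiquitin ligase that degrades YAP1, was the only one of the 78 whose cow means did not overlap, against 2.21% of all loci, a share near the background (18.4 ± 12.8 CPM in 7 Control pools and 39.2 ± 23.4 CPM in 8 Methionine pools, SD; log2 fold change 1.14, exact permutation p = 0.0286 and FDR = 0.606 in edgeR's exact test). SIK2 and FBXW11 were chosen after their values were seen.

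Of the cofactors of the kinases and kinases beside STK3 and STK4, 14 were tested, with 7 positive and 7 negative values and a median of -0.003. Levels in these lists are means ± SD over the 7 Control and 8 Methionine pools, and the gene with the highest mean CPM over the 15 pools is named for each list, without correction for transcript length. STK38, a relative of LATS1 and LATS2, was at 31.1 ± 27.9 CPM in Control and 47.7 ± 32.1 CPM in Methionine (log2 fold change 0.59). SAV1, the adaptor of STK3 and STK4, had the largest positive value, 4.12 (edgeR's exact test, p = 0.0334, FDR = 0.476), and 85.5% of its counts were in pool 8.2. The most negative value was -1.58 for MOB1A, a coactivator of LATS kinases, at 3.73 ± 5.03 CPM in Control and 1.43 ± 1.53 CPM in Methionine.

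Upstream and junction genes had a median of -0.19 over 22 genes tested, with 8 positive and 14 negative. RHOA, the small GTPase that relays cytoskeletal tension to YAP1, had the most reads, at 294 ± 220 CPM in Control and 267 ± 153 CPM in Methionine. The extremes were FAT4, an atypical cadherin with 4 pools above the limit of detection (log2 fold change 1.85, edgeR's exact test, p = 0.39), and the polarity gene CRB3 (-0.91, p = 0.243), which was at 2.77 ± 1.05 CPM in Control and 1.55 ± 0.96 CPM in Methionine. The list of inhibitors of the kinases also held RASSF genes, which are not all inhibitors. Its median was 0.08 over 13 genes tested, with 7 positive and 6 negative. Most reads were those of PPP2CA, the catalytic subunit of protein phosphatase 2A (286 ± 92.3 and 261 ± 83.7 CPM). RASSF2 had the largest positive value, 5.29 (edgeR's exact test, FDR = 0.179), from 71 counts at most in a pool and with 51.1% of its counts in pool 8.2, and WTIP the most negative, -1.23 (FDR = 0.974).

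The list for turnover and cytoplasmic retention of YAP1 and WWTR1 also held ubiquitin ligases with other reported substrates, among them NEDD4. Its median was 0.16 over 14 genes tested, with 9 positive and 5 negative. YWHAE, a 14-3-3 protein, had the most reads (1235 ± 981 CPM in Control and 1099 ± 532 CPM in Methionine). CSNK1E, a casein kinase, had the largest positive value, 5.15 (edgeR's exact test, FDR = 0.309), but reached 3 counts in 5 pools. NEDD4, a ubiquitin ligase, had the most negative value, -3.26 (edgeR's exact test, p = 0.00817, FDR = 0.256), and 60.9% of its counts were in pool 3.1.

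The other TEAD and VGLL genes included TEAD4, the TEAD factor required for trophectoderm formation in the mouse, which was detected with 329 to 1647 counts in every pool. It was at 119 ± 53.0 CPM in Control (SD, n = 7) and 158 ± 55.9 CPM in Methionine (SD, n = 8), with a log2 fold change of 0.43 (edgeR's exact test, p = 0.218, FDR = 0.909). TEAD2 had the largest positive value of the 4 genes tested (0.48) and VGLL1, a TEAD cofactor, the most negative (-1.16, exact test p = 0.185), and their median was 0.30.

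Reported transcriptional targets of YAP1 and TEAD, which would be read as output of the pathway, had a median of -0.26 over 11 genes tested, with 4 positive and 7 negative. LATS2 and AMOTL2, also reported targets, are described above. BIRC5 (survivin, an inhibitor of apoptosis) had both the most reads and the largest positive value, at 250 ± 100 CPM in Control and 419 ± 204 CPM in Methionine (log2 fold change 0.78, edgeR's exact test, p = 0.0322, FDR = 0.468). Its cow means overlapped between treatments (exact permutation test, two-sided p = 0.343), and its highest pool was 8.2, at 783 CPM. TGFB2, a growth factor, had the most negative value, -2.69 (edgeR's exact test, p = 0.0364, FDR = 0.497), with 65.8% of its counts in pool 4.2. The textbook targets CTGF and CYR61, chosen after their values were seen, were detected in every pool and had log2 fold changes of -0.52 and -0.10 (p = 0.285 and 0.837 in edgeR's exact test).

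**Figure D5:**
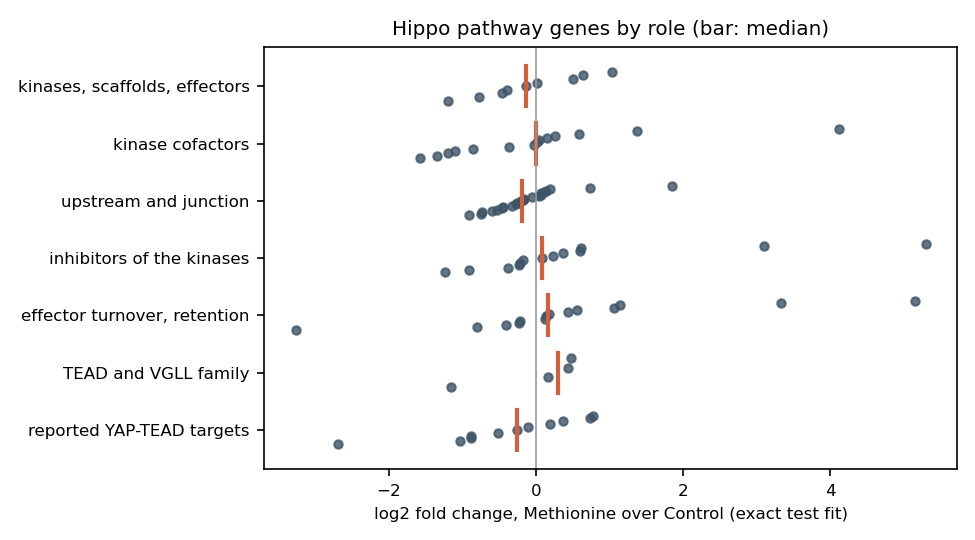
Log2 fold change of Methionine over Control on the x axis (exact test fit to 15 pools) for the tested Hippo pathway genes, by role on the y axis; each point is a gene and the orange bar is the median of its list. The medians lie between -0.26 and 0.30, no gene passed the test, and the points beyond 3 in either direction are low-count genes or genes with most reads in few pools. The row of inhibitors also holds RASSF genes, and that of effector turnover also holds ubiquitin ligases with other substrates.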

How the data were processed

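RNA of each blastocyst pool underwent linear amplification before the libraries were made. The authors mapped the reads to bosTau7 with TopHat2 (2.0.4), assembled transcripts with Cufflinks (2.0.2) and counted reads per gene with HTSeq, and the deposited files hold these counts, without normalization, for 22358 loci. Use of strand in counting is not given in the sources used here, so that reads of genes overlapping on opposite strands cannot be told apart. Transcript lengths and sequences were not analysed here, so that a gene's place by CPM in a list reflects its reads and not its level per length. Each locus was entered once and CPM were computed from the pool totals.

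The members and gene lists were chosen with earlier results of these data known. Genes named from the other lists were the highest in mean CPM and those with the largest positive and negative fold change; the 3 loci most like YAP1, WWTR1 and TEAD1 were named by Pearson's r. As in the study, loci with a summed CPM of at least 15 were tested with edgeR (4.0.16; TMM, tagwise dispersion, exact test, Benjamini-Hochberg adjustment over 10519 loci). Its quasi-likelihood test, DESeq2 (1.42.0) and limma voom (3.58.1, cow as a random effect) were run beside it. These tests, except limma voom, take pools from the same cow as independent. Limma voom used a within-cow correlation of 0.035 for all loci, which treats the pools of a cow as nearly independent. Exact permutation tests used 4 cow means per treatment, for which the smallest p is 0.0286. Scripts were tested on simulated data. Pools had no near-identical counts (smallest chi-square per degree of freedom 64.4).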

Additional observations from a re-analysis of the deposited data

Results flagged for a closer look

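In 5 of the 18 groups examined (9 genes by 2 treatments), the highest pool lay far from the others by Dixon's test at the 95% level. Chance flags about 1 in 20 groups, and CPM values are skewed towards high pools. STK3 was at 31.6 CPM (246 counts) in Control pool 4.2, and the next Control pool was at 11.9 CPM. LATS1 was at 40.0 CPM (267 counts) in Control pool 1.2, with 13.0 CPM in the next, and at 22.5 CPM (163 counts) in Methionine pool 5.1, with 5.15 CPM in the next. YAP1 was at 125 CPM (896 counts) in Methionine pool 8.1, with 21.4 CPM in the next. WWTR1 was at 81.7 CPM (528 counts) in Control pool 2.2, with 41.1 CPM in the next. The other pool of the same cow was at 3.63 CPM for STK3, 0.264 and 3.03 CPM for LATS1, 6.75 CPM for YAP1 and 16.2 CPM for WWTR1.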

How the results depend on the processing

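No Hippo pathway gene was called under any of the 20 alternatives, with FDR values of at least 0.407. STK3, LATS2 and AMOTL2 kept the sign of their log2 fold change in all 20, from 0.71 (without cow 8) to 1.88 (without cow 4) for STK3, 0.50 to 0.84 for LATS2 and -0.57 to -0.02 for AMOTL2. Signs turned for NF2 (-0.29 with limma voom, -0.0544 without pool 2.1, -0.0471 with total counts only and -0.00574 with pool numbers as a replicate block), YAP1 (-0.52 with limma voom) and WWTR1 (0.0328 with all 16 pools). Leaving out each cow in turn, the log2 fold change ranged from -1.13 to 0.0127 for STK4, -2.26 to 0.0648 for LATS1, -0.22 to 0.30 for NF2, -0.99 to 0.86 for YAP1, -0.46 to 0.0876 for WWTR1 and -1.33 to 0.24 for TEAD1. The difference in cow means of CPM turned for LATS1 (0.0306) and YAP1 (-0.60) on the log2 scale and for NF2 with TMM-scaled totals (0.561) and all 16 pools (1.58); without each cow it ranged from -37.2 to 9.83 for STK4, -5.86 to 1.11 for LATS1, -33.3 to 0.474 for AMOTL2, -2.13 to 2.86 for NF2, -9.81 to 10.8 for YAP1, -8.64 to 1.51 for WWTR1 and -4.69 to 1.59 for TEAD1. The ratio of YAP1 to WWTR1 differed between treatments by -0.92 to 0.49 when each cow was left out. The cause of these turns was not tested.

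Over all loci, the 110 calls became 0 with the quasi-likelihood test, with limma voom, with the quasi-likelihood test on pools summed by cow and with the replicate block, 67 with DESeq2, 341 with all 16 pools, 64 without pool 2.1, 55 with no filter, 6 with at least 1 CPM in 7 pools, and between 62 (without cow 8) and 153 (without cow 4) when each cow was left out. Of the other pathway genes, 2 were called with all 16 pools (RASSF2, log2 fold change 5.31, FDR = 0.073, and ANXA1, -3.13 against 0.19 in 15 pools, FDR = 0.0603, edgeR's exact test) and 0 in the other 19 alternatives. Pool numbers are shared by the cows but did not pair the pools: the mean correlation of deviations was -0.007 for pools of the same number and 0.007 for others. Low counts limited LATS1, TEAD1 and above all AMOT, and with 4 cows a treatment no permutation p passed a correction over all loci.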

Other observations

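In pool 3.2, which entered none of the comparisons, YAP1 had 48 counts or 27.5 CPM, within the range of the other Control pools (4.95 to 32.5 CPM). The other 9 Hippo pathway genes had between 0 and 4 counts there, or at most 2.29 CPM, and AMOTL2, at 77.5 CPM or more in the other Control pools, had 4 counts.

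Markers of cells other than the embryo's were low for most lists. Erythroid markers summed to between 1.96 and 38.7 CPM in the Control pools and between 1.01 and 45.5 CPM in the Methionine pools, mostly from ALAS2, with HBA at 0. Granulosa and cumulus markers summed to between 2.64 and 69.0 CPM and between 4.31 and 55.7 CPM, mostly from CYP19A1, with INHA and FOXL2 at 0. Endometrial and oviductal markers summed to between 0 and 5.73 CPM and between 0.256 and 26.3 CPM, mostly from PGR in pool 6.1. The leukocyte markers had most reads from LAPTM5 and none from CD3E in the 15 pools. Of the 7 tested, 5 were called higher in Control, against 0.77% of all loci, but this count is not a separate result. LAPTM5, NKG7, TYROBP and LCP1 are among the most significant genes that the study listed from these same data. With nearly all of their counts in pool 2.1, LAPTM5, TYROBP and LCP1 passed the filter on low counts only through that pool. Pool 2.1 held 99.6% of the counts of LAPTM5 and of TYROBP, 99.2% of LCP1, 93.0% of NKG7 and 76.0% of CD53.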
